A study of Mus musculus with 6 samples.

Results

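The genes described here encode ATP-binding cassette (ABC) transporters of the mouse, membrane proteins that use ATP to move substrates across the plasma membrane and the membranes of mitochondria, peroxisomes and lysosomes. The set holds the protein-coding genes of the A, B, C, D and G subfamilies by symbol, without Abca1, Abca3, Abcb6 and Abcg1, and comprises 42 of the 22028 protein-coding genes, and of 36047 genes in all, that were measured. RNA was sequenced from MLE-12 cells, a murine lung epithelial line described as wild-type. As background, the line was made from a lung tumour of a mouse carrying the SV40 large T antigen under the human surfactant protein C promoter. Cells at a density of 30% received cigarette smoke extract (CSE, a 5% solution with an optical density of 2.0) or an equal volume of phosphate-buffered saline (PBS), and were harvested 24 h later, with 3 libraries of each. The labels do not state that replicate libraries are from different cultures, so a p-value covers the spread among these 6 libraries, which may be technical, and both groups are the same line. The stated question was which genes differ between extract-treated and control cells.

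ABC transporters couple ATP hydrolysis in their nucleotide-binding domains to transport through their membrane domains, and most of those described here export their substrate from the cytosol. In lung epithelium, the multidrug pumps (Abcb1a, Abcb1b, Abcg2) and the multidrug resistance-associated proteins (the MRP members of the C subfamily) export drugs, inflammatory lipids, cyclic nucleotides and glutathione conjugates, among them products of the electrophiles in tobacco smoke. Nrf2 and the aryl hydrocarbon receptor (AhR) are known regulators of several of these genes and recognise short DNA motifs in their promoters.

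The 3 stretches below are shown because they lie before the start sites of the called genes among the multidrug pumps and MRP exporters, a pair that rose and a gene that fell after CSE. They are RefSeq sequences of build GRCm38.p6, the 250 bases before the start, 5′ to 3′ in the direction of the gene, with motif letters in capitals. Abcc4 lies on chr14:118706220-118706469 (minus strand), Abcb1b on chr5:8797897-8798146 (plus strand) and Abcc5 on chr16:20426395-20426644 (minus strand).
Abcc4: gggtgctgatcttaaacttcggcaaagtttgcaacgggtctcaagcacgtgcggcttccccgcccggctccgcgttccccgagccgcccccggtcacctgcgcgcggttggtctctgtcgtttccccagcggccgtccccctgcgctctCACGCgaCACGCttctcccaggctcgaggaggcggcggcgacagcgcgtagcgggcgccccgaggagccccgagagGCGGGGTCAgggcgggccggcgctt
Abcb1b: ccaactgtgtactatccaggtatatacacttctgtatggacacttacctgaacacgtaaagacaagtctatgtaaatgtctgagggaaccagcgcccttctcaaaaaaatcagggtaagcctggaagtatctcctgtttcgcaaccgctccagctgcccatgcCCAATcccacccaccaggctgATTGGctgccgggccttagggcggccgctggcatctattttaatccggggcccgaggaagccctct
Abcc5: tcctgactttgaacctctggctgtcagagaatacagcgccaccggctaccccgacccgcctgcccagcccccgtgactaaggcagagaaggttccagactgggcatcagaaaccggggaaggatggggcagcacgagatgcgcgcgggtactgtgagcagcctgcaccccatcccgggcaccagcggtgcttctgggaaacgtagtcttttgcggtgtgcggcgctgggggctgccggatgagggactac
The motifs searched on both strands were the antioxidant response element core TGACNNNGC, the AhR response element core GCGTG and the CCAAT box CCAAT, which do not overlap one another in these windows. Before the Abcc4 start shown, which is also that of its most abundant transcript, stood 1 antioxidant response element core and 2 AhR cores, all on the opposite strand. A second RefSeq window of Abcc4, chr14:118676932-118677181, held 1 antioxidant core and no AhR core. The Abcb1b window held 2 CCAAT boxes, 1 on each strand, and the Abcc5 window held none of the 3 motifs. Of all 32851 RefSeq promoters of this length, 10.2% held TGACNNNGC, 28.2% held GCGTG, 33.8% held CCAAT and 3.52% held both the antioxidant and the AhR core. Sequences were matched for 31 of the 42 genes, with 37 promoters, of which 4, 9 and 10 held the respective motifs and 1 held both response element cores. Both Abcc4 windows are among the 4 with the antioxidant core. The others lie before Abcc10, which was not called, and Abcc2, which was not tested. AhR cores also stood before Abca5, Abcb4, Abcd3 and Abcg3, which were tested and not called. A match is a description of letters and not of binding.

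Abundance was read in TPM, kallisto's abundance relative to all transcripts, which accounts for length. Changes were tested on estimated counts, given as CPM, counts scaled to TMM-adjusted library size without regard to length. Of the 42 genes, 13 reached a mean of 5 TPM in either group, 8 lay between 1 and 5 TPM and 21 stayed under 1 TPM in both. In PBS cells Abcc5 stood above all the others (119 to 143 TPM), followed by Abcc1 (54.7 to 67.6 TPM). Abcb8, Abcd3 and Abcg2 came next (32.8 to 54.9 TPM), with neighbours in that order, Abcc1 included, overlapping between libraries. Abcb10 (25.9 to 32.1 TPM) stood apart from both of its neighbours. Abca7, Abca2 and Abcd4 overlapped one another (16.9 to 25.3 TPM), as did Abcc4 and Abcb1b (12.2 to 17.8 TPM). After CSE the first 6 kept their ranks by mean, while Abcc4 moved from rank 10 to 7, Abcb1b from 11 to 8 and Abca7 from 7 to 11. The summed TPM of all 42 genes was 434, 498 and 509 in PBS and 493, 447 and 421 in CSE libraries, which overlap.

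**Figure D1:**
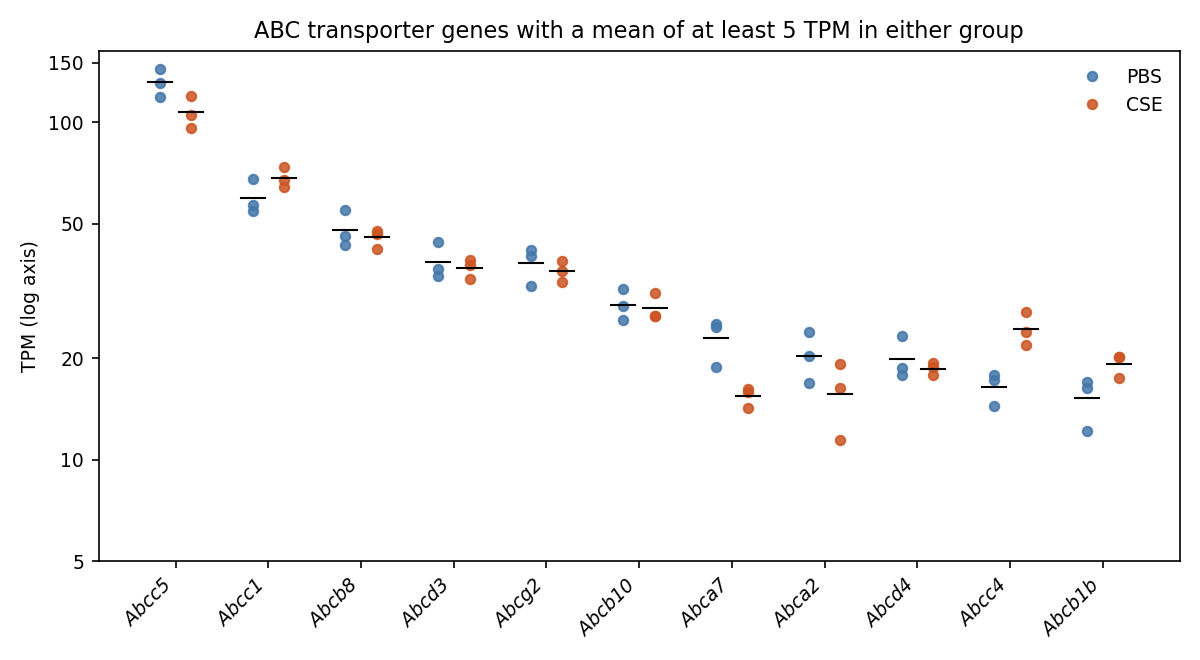
TPM on a log axis of 11 ABC transporter genes that average 5 TPM or more in either group, ordered by their PBS mean. Points are libraries (3 PBS, 3 CSE) and black bars are group means; Abcc4, Abcb1b and Abca7 show no overlap between the groups.

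Of the set, 23 genes had enough counts to be tested. With edgeR's quasi-likelihood test and an adjusted p under 0.05 over all genes, Abcc4 and Abcb1b rose after CSE, and Abcc5, Abca7, Abcg4 and Abca2 were among the 5 that fell. In these bulk libraries, fewer cells of a kind and less RNA per cell cannot be told apart. The 2 genes that rose are 8.70% of those tested, against 4.32% of all 13451 genes tested. The 5 that fell are 21.7%, against 7.12%, and calls in either direction made up 30.4% against 11.4%. The fitted changes of called genes ran from 0.30 to 1.14 in size on the log2 scale, and 1 of the 7 reached 2-fold. Over the 23 genes the median log2 change was -0.01, with 9 above and 14 below 0, and over all genes tested it was 0.01. In 10 of the 23 (43.5%) the CPM of the groups did not overlap, against 31.2% of all genes tested. Those 10 lay 5 in each direction: among them Abcc1 and Abca9 were higher in CSE and not called.

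**Figure D2:**
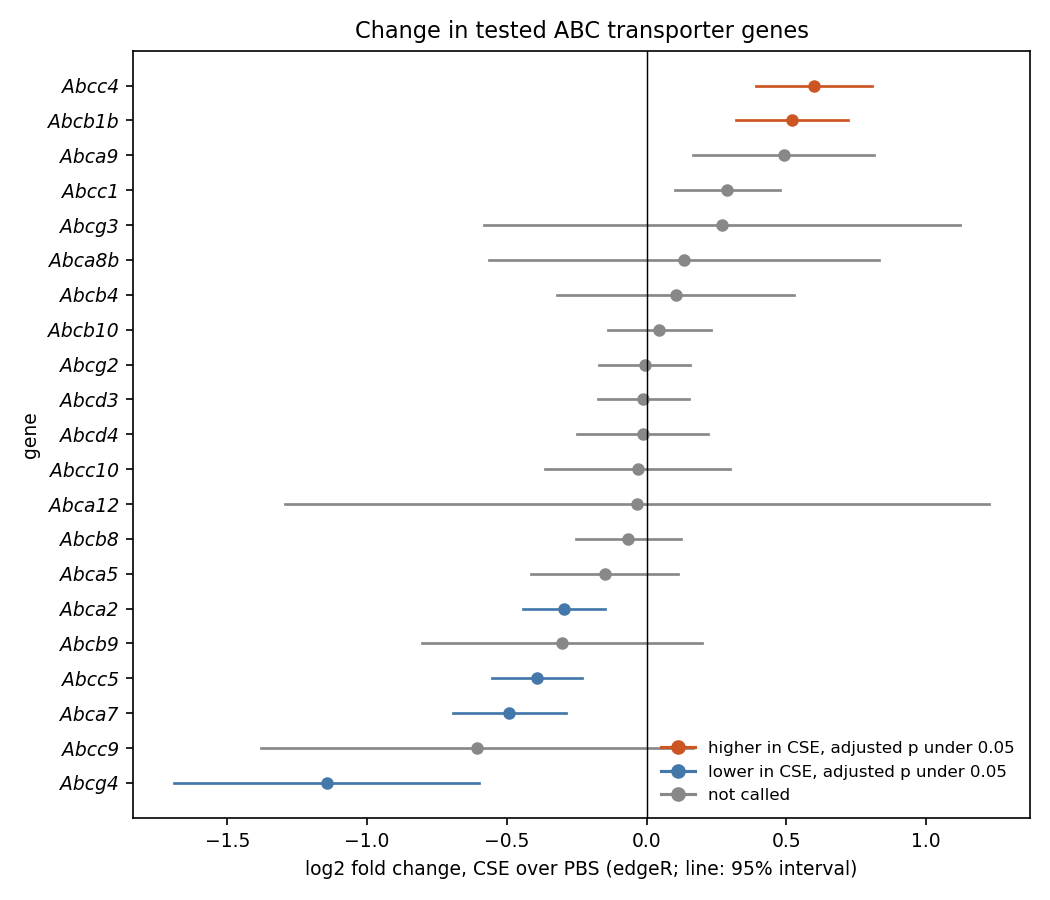
Fitted log2 fold change, CSE over PBS, of 21 tested ABC transporter genes (points) with 95% intervals (lines). Abcc4 and Abcb1b lie to the right among the called genes, and Abcg4, at -1.14, lies farthest to the left.

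Among the multidrug pumps of the cell surface, 1 of 2 tested genes rose and none fell. Abcb1b, which with Abcb1a encodes the rodent P-glycoproteins that expel lipophilic drugs, lies on chr5:8798147-8866315 (plus strand). It stood at 12.2, 16.4 and 17.0 TPM in PBS and at 20.2, 17.4 and 20.2 TPM in CSE libraries, so the groups were separate by a narrow margin. In CPM the margin was wider, with 30.3, 27.5 and 32.3 in PBS and 41.1, 41.3 and 46.8 in CSE. The log2 fold change was 0.52 ± 0.09 (SE, n = 3 a group; edgeR adjusted p = 0.0039), or 1.43-fold. With limma on log2(TPM + 1) the change was 0.33 and was not called (adjusted p = 0.193). Of the 31-base words of its main transcript, 25.2% also occur in other genes, most often Abcb1a, so reads may be divided between the pair. Abcb1a itself had too few counts to test, 15 in PBS and 31 in CSE libraries together. Summed over both genes, CPM was 30.5, 27.8 and 32.7 in PBS and 42.1, 41.7 and 47.4 in CSE.

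Abcg2, the breast cancer resistance protein, exports urate, porphyrins and many drugs. Its levels were 32.8, 40.2 and 41.9 TPM in PBS and 38.8, 33.7 and 36.3 TPM in CSE libraries. The groups overlapped, and the log2 fold change was -0.01 ± 0.07 (edgeR adjusted p = 0.963), with a 95% interval from -0.17 to 0.15. Abcg2 was the most abundant of the 3 multidrug pumps by TPM in each library. The 95% interval of Abcb1b, for comparison, ran from 0.32 to 0.72, and the difference between the genes was not tested.

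Among the exporters of conjugates and nucleotides (MRP), 1 of 4 tested genes rose, 1 fell and 2 were not called. Abcc4 exports cyclic nucleotides, prostaglandins and conjugates, and lies on chr14:118482692-118706219 (minus strand). It stood at 17.2, 14.4 and 17.8 TPM in PBS and at 27.4, 23.9 and 21.9 TPM in CSE libraries, and every CSE library was above every PBS library. The log2 fold change was 0.60 ± 0.09 (edgeR adjusted p = 0.0019), or 1.51-fold, and Abcc4 was called under each of the 19 other settings tried. Its main coding transcript, Abcc4-202, which begins at the start site printed above, went from 12.8, 11.6 and 12.0 TPM to 22.3, 16.1 and 16.9 TPM. The other coding transcript, Abcc4-201, lay at 2.0 to 5.2 TPM in PBS and 2.3 to 6.6 TPM in CSE libraries, which overlap.

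Abcc5, which exports cyclic nucleotides and their analogues, was the most abundant gene of the set and fell. It lies on chr16:20331303-20426394 (minus strand). Its CPM were 309, 333 and 324 in PBS and 262, 241 and 234 in CSE libraries, without overlap. This was a log2 fold change of -0.39 ± 0.07 (edgeR adjusted p = 0.0054), so CSE libraries were 1.31-fold lower. In TPM the groups overlapped, at 119, 143 and 131 in PBS and 120, 105 and 95.9 in CSE, and with an offset for effective length the change was -0.22 and not called (adjusted p = 0.150). The effective length of the gene, weighted by its transcripts, was 3844, 3566 and 4054 bases in PBS and 3305, 3393 and 3465 bases in CSE libraries. Its coding transcript Abcc5-202 held 92.2% to 93.9% of the counts of the gene and stood at 76.7, 86.6 and 89.1 TPM in PBS and at 66.0, 58.8 and 54.6 TPM in CSE, without overlap. A short retained-intron transcript, Abcc5-207, took 24.0% to 37.1% of the TPM on 98 to 186 counts, which were 1.95% to 3.55% of the counts, and overlapped between groups. With coding transcripts alone, Abcc5 was called on both scales, at -0.42 by edgeR (adjusted p = 0.0062) and -0.47 by limma on log2(TPM + 1) (adjusted p = 0.0131).

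**Figure D3:**
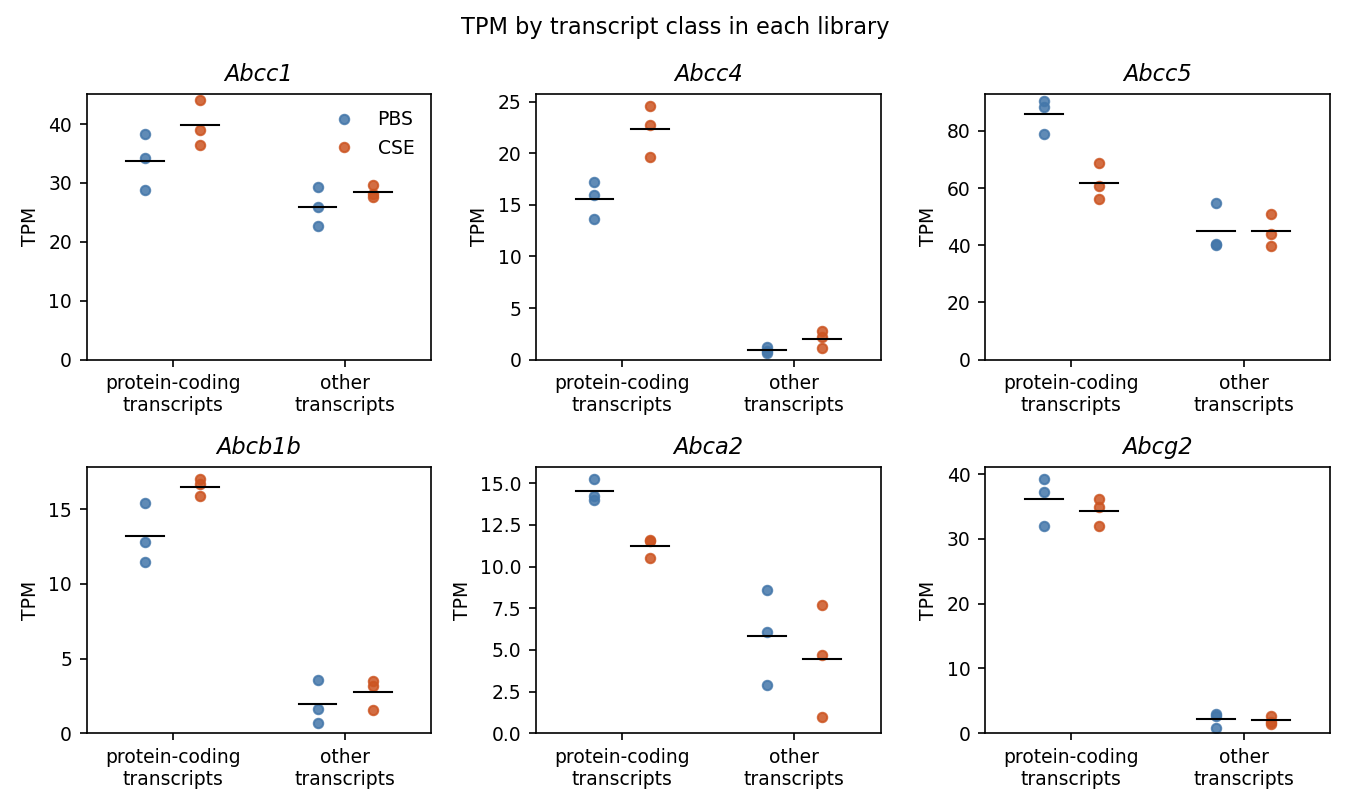
TPM summed over protein-coding transcripts and over other transcripts of 6 ABC transporter genes, in each of 3 PBS and 3 CSE libraries (points), with group means (bars). In Abcc4, Abcb1b, Abcc5 and Abca2 the coding transcripts separate the groups and the other transcripts do not. In Abcc1 and Abcg2 both classes overlap between the groups.

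Abcc1, which exports glutathione conjugates and leukotriene C4, lies on chr16:14361558-14475737 (plus strand). It stood at 56.9, 54.7 and 67.6 TPM in PBS and at 73.7, 67.2 and 64.1 TPM in CSE libraries, which overlap. In CPM the values were 190, 163 and 197 in PBS and 236, 221 and 215 in CSE, so here each CSE library was above each PBS library. The log2 fold change was 0.29 ± 0.08 (edgeR adjusted p = 0.0519), with a 95% interval from 0.10 to 0.48, and it was not called. Of the 19 other settings 6 called it, all with a positive sign, among them DESeq2 (adjusted p = 0.0220) and the fit without PBS replicate 1 (adjusted p = 0.0470). Coding transcript Abcc1-201 made up 52.5% to 60.2% of its TPM and retained-intron transcript Abcc1-208 made up 33.3% to 38.5%, and both overlapped between the groups.
Abcc10, which exports taxanes and nucleoside drugs, lay between 2.76 and 4.02 TPM in all 6 libraries and was not called (edgeR adjusted p = 0.921). The other MRP genes were not tested. Abcc3, an exporter of glucuronides, had 19 counts in PBS and 42 in CSE libraries together. This was a ratio of 2.15 per TMM-adjusted library size, with an exact 95% interval of 1.23 to 3.92 that covers counting error only. An exact permutation test over the libraries gave p = 0.40 (0.70 after adjustment over 7 such tests), where 3 against 3 cannot go below 0.1. Abcc2 had 12 and 18 counts (ratio 1.46, 0.666 to 3.33), Abcc12 had 0 and 1, and Abcc6 had none. The TPM summed over all 8 genes of this class was 196, 217 and 220 in PBS and 226, 201 and 186 in CSE libraries, which overlap.

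In the A subfamily, whose members are associated with lipid transport, 2 of 6 tested genes fell and none rose. Abca7, a phospholipid transporter with a part in phagocytosis, lies on chr10:79996494-80015572 (plus strand). It stood at 18.9, 25.3 and 24.7 TPM in PBS and at 16.2, 15.9 and 14.2 TPM in CSE libraries, without overlap. It fell by 0.49 ± 0.09 on the log2 scale (edgeR adjusted p = 0.0055), so CSE libraries were 1.41-fold lower. With each library's trend on GC content and length removed, the change was -0.24 (adjusted p = 0.0593) and no longer called. All 3 annotated transcripts with counts are coding, and their division varied between libraries: Abca7-203 took 38.2% to 75.1% of the TPM.

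Abca2, an endolysosomal lipid transporter known from myelin-forming cells, lies on chr2:25428703-25448540 (plus strand). Its CPM were 75.2, 74.0 and 75.8 in PBS and 61.9, 63.2 and 58.2 in CSE libraries, without overlap, and its TPM were 16.9, 20.3 and 23.9 against 19.2, 16.3 and 11.4, with overlap. The log2 fold change was -0.30 ± 0.07 (edgeR adjusted p = 0.0157). The coding transcript Abca2-201 stood at 14.0, 14.3 and 15.3 TPM in PBS and at 11.5, 11.6 and 10.5 TPM in CSE, while the other transcripts together ranged from 0.95 to 8.60 TPM. The call was lost under 10 of the 19 other settings, among them the removal of the GC and length trend, where the change was -0.06 (adjusted p = 0.581). It was also lost without PBS replicate 3 (adjusted p = 0.0582) or without any of the CSE replicates 1, 2 and 3 (adjusted p = 0.0591, 0.0565 and 0.103).

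Abca9, known from macrophages as a sterol-responsive gene, stood at 2.35, 2.30 and 3.61 TPM in PBS and at 3.78, 3.50 and 3.55 TPM in CSE libraries. Its log2 fold change of 0.49 ± 0.15 was not called (edgeR adjusted p = 0.0565). Of the 19 other settings 4 called it: DESeq2 (adjusted p = 0.0354), no filter on low counts (adjusted p = 0.0040), the GC and length trend removed (adjusted p = 0.0207), and the fit without PBS replicate 3, at 0.68 (adjusted p = 0.0109). Abca5, a lysosomal member, changed by -0.15 ± 0.12 (edgeR adjusted p = 0.463). Abca12, the keratinocyte lipid transporter, and Abca8b were not called; they had 32 and 108 counts in PBS and 30 and 116 in CSE libraries. Of the 8 untested members Abca4, the photoreceptor retinoid transporter, had the most counts, 36 in PBS and 22 in CSE (ratio 0.595, 0.334 to 1.04; exact permutation p = 0.1, adjusted 0.35). Abca13 had 10 counts in all, Abca6, Abca8a, Abca16 and Abca17 had 3 to 6, and Abca14 and Abca15 had none.

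Neither of the mitochondrial genes Abcb8 and Abcb10 was called by edgeR or DESeq2. Their proteins sit in the inner membrane as dimers and serve a mitochondrial potassium channel and iron handling (Abcb8) and haem synthesis (Abcb10). Abcb8 stood at 43.2, 54.9 and 46.0 TPM and at 47.7, 46.7 and 42.2 TPM, with a change of -0.07 ± 0.09 (95% interval -0.25 to 0.12). Abcb10 stood at 28.5, 25.9 and 32.1 TPM and at 31.2, 26.6 and 26.7 TPM, with a change of 0.05 ± 0.08 (95% interval -0.14 to 0.23). In both the TPM of the groups overlapped.
In the other B-subfamily roles, Abcb4, the phosphatidylcholine floppase of bile, and Abcb9, the lysosomal peptide transporter, were tested and not called. Abcb4 had 175 counts in PBS and 192 in CSE, and 5.80% of its words are shared, mostly with Abcb1a. Abcb9 changed by -0.30 ± 0.23 (edgeR adjusted p = 0.434). Abcb5 had 14 counts in all and Abcb11, the bile salt export pump, had 5.

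The peroxisomal transporters bring fatty acids and their derivatives to beta-oxidation. Abcd3, which carries branched fatty acids and bile acid precursors into the organelle, stood at 35.0, 36.7 and 44.0 TPM and at 39.0, 37.8 and 34.3 TPM, and changed by -0.01 ± 0.07 (95% interval -0.18 to 0.15). Abcd2 had 3 counts in PBS and 11 in CSE libraries (ratio 3.57, 0.943 to 19.9; exact permutation p = 0.4). Abcd4, which takes part in lysosomal cobalamin export, stood at 17.8, 23.3 and 18.7 TPM and at 18.8, 19.3 and 17.8 TPM, with a change of -0.01 ± 0.11 (95% interval -0.25 to 0.22).

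Abcg4, a sterol transporter known mainly from brain, lies on chr9:44273188-44288615 (minus strand) and had the largest fitted change of the called genes at a low level. It stood at 1.73, 2.49 and 1.43 TPM in PBS and at 0.59, 0.84 and 0.82 TPM in CSE libraries, without overlap, on 166 and 78 counts. The log2 fold change was -1.14 ± 0.25 (edgeR adjusted p = 0.0126), so CSE libraries were 2.21-fold lower. It was not called with limma on log2(TPM + 1) (-0.71, adjusted p = 0.0893) or on coding transcripts alone (-1.44, adjusted p = 0.294), and from 21.8% to all of its TPM in a library was on retained-intron transcript Abcg4-203. Abcg3, a rodent relative of Abcg2, changed by 0.27 ± 0.39 and was not called (edgeR adjusted p = 0.708). Abcg5 and Abcg8, the sterol pair of liver and intestine, had 1 and 2 counts. Of the potassium channel subunits Abcc9 changed by -0.61 ± 0.35 on 57 and 39 counts (edgeR adjusted p = 0.307) and Abcc8 had no count.

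**Figure D4:**
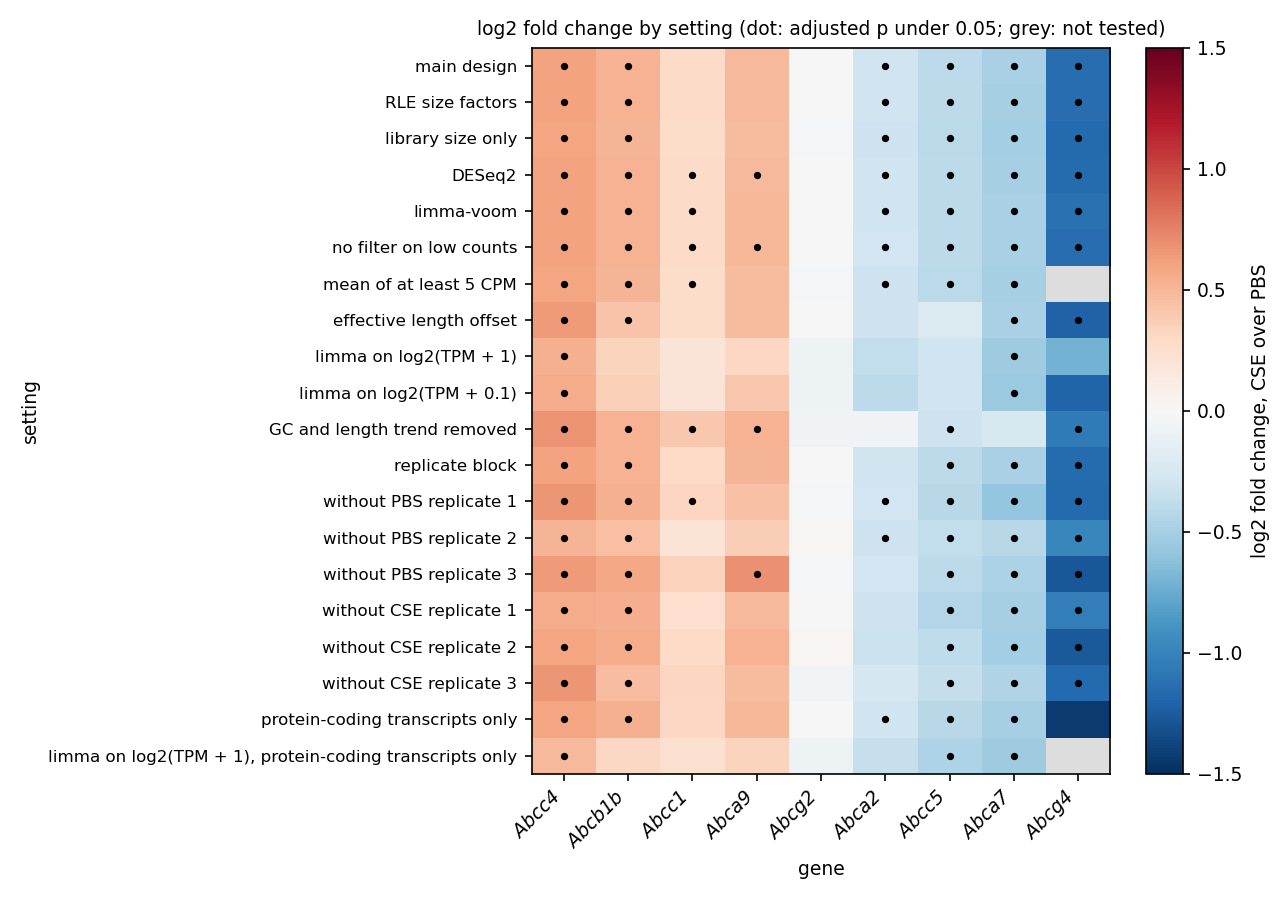
Fitted log2 fold change, CSE over PBS (colour), of 9 ABC transporter genes under the main design and 19 other settings (rows), with a dot where the adjusted p was under 0.05. Abcc4 is dotted in every row, Abca2 in 9 of the 19 other settings, and Abcg2 stays near 0.

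Altogether 19 of the 42 genes were not tested: 4 had no count in any library, 8 had 1 to 9 counts and 7 had 10 or more. The highest level among them in a library was 1.92 TPM. A count of 0 allows up to 3 counts, which is 0.125 to 0.248 CPM in these libraries. Abcb1a, with 15 and 31 counts (ratio 2.01, 1.05 to 4.01), reached the smallest exact permutation p possible, 0.1 (adjusted 0.35).

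Genes that work beside these transporters were counted in 7 lists. Over all 13451 genes tested, 4.32% were called higher and 7.12% lower, and no list was tested against these shares. Of the other ABC genes, 2 of 10 tested rose and none fell, with a median log2 change of 0.10. They were the cholesterol exporter Abca1 (0.54 ± 0.14; edgeR adjusted p = 0.0287) and the porphyrin-associated Abcb6, which went from 40.1 ± 3.53 to 62.6 ± 5.04 TPM (SD, n = 3), a log2 change of 0.49 ± 0.08 (edgeR adjusted p = 0.0023). Abca1 was not called with limma on log2(TPM + 1) (adjusted p = 0.373) or with the replicate block (adjusted p = 0.0529). With a library left out, edgeR called Abca1 only without CSE replicate 2 (adjusted p = 0.0193) or PBS replicate 1 (adjusted p = 0.0490). Of the words of Abcb6, 91.7% also occur in an overlapping gene model, so its reads cannot be assigned with certainty. Among 10 tested regulators of efflux genes the estrogen receptor Esr1 rose (0.44 ± 0.13; edgeR adjusted p = 0.0470) and none fell, with a median of 0.04. Esr1 was not called with DESeq2 (adjusted p = 0.0989), with library size only (adjusted p = 0.0595), with limma on TPM, with the replicate block, on coding transcripts alone, or with any 1 of the 6 libraries left out (adjusted p = 0.0643 to 0.205). Nfe2l2, which encodes Nrf2, changed by 0.17 ± 0.07 (adjusted p = 0.135) and Ahr by -0.37 ± 0.15 (adjusted p = 0.151), neither called. The xenobiotic receptors Nr1i2 and Nr1i3 were not tested, with 1 and 8 counts in PBS and 0 and 6 in CSE libraries. Of 15 organic anion carrier (Slco) and multidrug and toxin extrusion (Slc47a) genes, 3 could be tested, all of them Slco. None was called by edgeR, with a median of 0.40. DESeq2 called none, and 1 had an unadjusted p under 0.05: Slco2b1 changed by 0.58 ± 0.22 (adjusted p = 0.118; unadjusted p = 0.0228). Slco5a1 changed by 0.40 ± 0.25 (adjusted p = 0.360). Slco2a1, the most abundant of the 3 at 69.7 to 79.5 TPM, changed by -0.02 ± 0.07 (edgeR adjusted p = 0.908).
Of 12 tested peroxisome partners 2 rose and none fell (median -0.02). The peroxisomal thiolase Acaa1b stood at 5.25, 6.91 and 7.88 TPM in PBS and at 18.1, 20.2 and 15.6 TPM in CSE libraries, a log2 change of 1.5 ± 0.14 (edgeR adjusted p = 7.5e-05), with 45.7% of its words shared, mostly with Acaa1a. Hsd17b4, the bifunctional beta-oxidation enzyme, rose by 0.28 ± 0.07 (edgeR adjusted p = 0.0323). It was not called with the length offset (adjusted p = 0.0914), the replicate block (adjusted p = 0.0787) or limma on log2(TPM + 1) (adjusted p = 0.323). With a library left out it was called only without PBS replicate 1 (adjusted p = 0.0269). Of 16 genes of iron-sulfur cluster assembly and iron supply, 2 rose and none fell (median 0.05): the co-chaperone Hscb by 0.62 ± 0.17 and the sulfhydryl oxidase Gfer by 0.29 ± 0.08 (edgeR adjusted p = 0.0361 and 0.0376). By edgeR on coding transcripts alone, Gfer changed by -0.0049 (adjusted p = 0.991) and Hscb by 0.59 (adjusted p = 0.0617). With the replicate block neither Hscb nor Gfer was called (adjusted p = 0.0886 and 0.0942). Limma on log2(TPM + 1) called Hscb (adjusted p = 0.0445) and not Gfer (adjusted p = 0.106). With a library left out, edgeR called Gfer only without PBS replicate 1 (adjusted p = 0.0254). Hscb was then called only without PBS replicate 1 (adjusted p = 0.0069) or CSE replicate 1 (adjusted p = 0.0174). Of 10 cobalamin genes 1 fell and none rose (median 0.04): Tcn2, the cobalamin carrier of plasma, changed by -0.47 ± 0.08 (edgeR adjusted p = 0.0041). Of 5 tested anchoring and trafficking genes 1 fell and none rose (median -0.20). It was Ezr, encoding ezrin, which links membrane pumps to actin and stood at 285, 248 and 307 TPM in PBS and at 182, 170 and 157 TPM in CSE, a log2 change of -0.64 ± 0.09 (edgeR adjusted p = 6.4e-04).

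Library totals were 12093009 to 24050167 estimated counts and did not separate the groups. Lung epithelial markers moved with the group: 8 of 11 tested were lower, against 7.12% of all genes tested. The summed TPM of all 16 markers was 1688 to 1789 in PBS and 909 to 1012 in CSE libraries. The line's label was checked against them. Krt19 was the largest part of the sum, at 448 to 1053 TPM over the 6 libraries. Krt8 stood at 152 to 218 TPM, Nkx2-1 at 98.7 to 130, Hopx at 88.3 to 165 and Ager at 66.8 to 192. Pdpn lay at 21.9 to 41.8 TPM and Cldn3 at 9.34 to 19.8. Cdh1, Sftpc, Epcam, Sftpb and Muc1 reached at most 6.68 TPM, and Krt18, Cldn4, Sftpa1 and Sftpd stayed under 1 TPM. The 4 mesothelial markers summed to 195 to 220 TPM in PBS and 60.8 to 69.1 TPM in CSE, and 3 of 4 tested were lower. The 6 fibroblast and smooth muscle markers, mostly Dcn, summed to 869 to 1126 TPM and 478 to 545 TPM. Of 4 tested fibroblast and smooth muscle markers 2 were lower and 1 was higher, Pdgfra, at 2.50 to 2.81 TPM in PBS and 3.98 to 5.11 TPM in CSE libraries. Immune markers summed to 4.80 to 7.95 TPM and 5.12 to 7.26 TPM with Adgre1 at 0, and 1 of 3 tested was higher and none lower. Endothelial markers summed to 2.28 to 2.90 TPM and 1.42 to 3.41 TPM with Cdh5 at 0, and none of 2 tested was called. Ciliated and secretory airway markers summed to 1.62 to 1.93 TPM and 0.996 to 1.4 TPM, and the 1 tested was lower. The part of these shifts in the results above was not tested.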

How the data were processed

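RNA-seq of 3 PBS and 3 CSE libraries of MLE-12 cells was analysed from per-transcript tables. Per the file headers these hold kallisto's estimated counts, effective lengths and TPM. The submitters' processing notes name FastQC 0.12.1, fastp 0.20.1, kallisto 0.46.2, DESeq2 1.40.2 and build GRCm38. The estimated counts and the TPM were deposited by the authors, and the headers name no further scaling. The extraction text names lung tissue, while the sample labels name the cell line.

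Here both were summed per gene over the 116816 of 118489 transcripts found in GENCODE vM21; the other 1673 held 0.638% to 0.664% of the counts. Sums were rounded and tested with edgeR 4.0.16 (R 4.3.3; quasi-likelihood, filterByExpr with a minimum of 10, TMM, two-sided, Benjamini-Hochberg over 13451 genes, threshold 0.05). Intervals are 95%. Untested genes with at least 10 counts got an exact binomial interval of the ratio and an exact permutation test over libraries. Values in each library are given for called genes, Abcc1 and genes of at least 5 TPM; other genes by counts or ranges with up to 3 examples a role. Partner genes are named where called, or the 2 of smallest p where none was. Nfe2l2, Ahr, Nr1i2, Nr1i3 and Slco2a1 were added after their values were seen. Values of some genes are not reported here. Members and lists were chosen with earlier results of these data known.

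Alternatives were RLE or no scaling factors, DESeq2 1.42.0, limma-voom (limma 3.58.1), other filters, an effective length offset, limma on log2(TPM + 1) and log2(TPM + 0.1) at a mean of at least 1 TPM, removal of the GC and length trend, a replicate block and each library left out. Sums over coding transcripts only were added after seeing the data. The scripts were tested on simulated data. Libraries of a group differed by more than sampling noise (chi-square per degree of freedom 5.61 to 17.7).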

Additional observations from a re-analysis of the deposited data

How the results depend on the processing

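Abcc4 was called under all 19 alternatives, with changes of 0.49 to 0.67. In the set, 2 genes were called higher in the main fit, 4 with DESeq2 and without a count filter, 5 with the GC and length trend removed, and 1 with limma on TPM. The set had 5 called lower, 2 with the effective length offset and with the trend removed, 1 with limma on log2(TPM + 1) or log2(TPM + 0.1), 2 with limma on coding transcripts and 3 with edgeR on coding transcripts. Leaving out 1 library gave 2 to 3 higher and 3 to 4 lower calls. Over all genes 1539 were called, 998 and 985 with limma on log2(TPM + 1) and log2(TPM + 0.1), and 837 (without CSE replicate 3) to 1941 (without PBS replicate 1) with a library left out. The split was 581 higher and 958 lower in the main fit, 224 and 774 with limma on log2(TPM + 1), and 867 and 911 with the trend removed. The cause was not tested.

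No pairing by replicate number was seen: correlations of the deviations of same-numbered libraries were -0.124, 0.01 and -0.06. Of the 3, 0 correlated best with its own number. With 3 libraries a group, this check cannot exclude a pairing. The fit with the replicate block called 1022 genes, among them 3 members lower and 2 higher.

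Calls in the partner lists rest on few genes. Of the other ABC genes 2 were called, 3 with the GC and length trend removed, 1 with limma on TPM and with the replicate block, and 1 to 2 with a library left out. Of the regulators 1 was called, 2 with the length offset and the trend removed, 0 with DESeq2, library size only, limma on TPM, the block and coding transcripts, and 0 to 1 with a library left out. Of the peroxisome partners 2 were called, 3 with DESeq2, library size only, either other count filter and the trend removed, 1 with limma on TPM, the offset and the block, and 1 to 2 with a library left out. Of the iron-sulfur genes 2 were called, 3 with DESeq2, no count filter and the trend removed, 1 with limma on TPM, 0 with the block and with edgeR on coding transcripts, and 0 to 4 with a library left out. The Slco and Slc47a genes had 0 to 1 with a library left out and 0 otherwise. Of the anchoring genes 1 was called, 2 with DESeq2, no count filter and limma on log2(TPM + 1) over all or coding transcripts, and 1 to 2 with a library left out. The cobalamin gene was called in all 19.

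Changes near 0 took the other sign in some alternatives without being called. Abcb8 was 0.0059 with the length offset, 0.063 with the trend removed and -0.10 to 0.010 with a library left out. Abcd3 was 0.024 with the offset and -0.045 to 0.049 with a library left out. Abcg2 was 0.0031 with the offset and -0.041 to 0.027 with a library left out. Abcb10 was -0.030 and -0.031 with limma on log2(TPM + 1) and log2(TPM + 0.1), -0.030 with limma on coding transcripts and -0.029 to 0.089 with a library left out. Abcd4 was 0.053 with the trend removed, 0.044 on coding transcripts and -0.091 to 0.10 with a library left out. Depth limits the 19 untested genes.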
